A study of Mus musculus with 19 samples.

Results

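The 522 genes of mouse chromosome 10 that reached a mean of at least 5 CPM (counts of a gene per 1000000 gene counts) over 10 liver tumours were compared between those tumours in their order along the chromosome. They were selected on these measured values from 1374 chromosome 10 genes of the count table, 1026 of which had at least 1 count. For each gene, a tumour's deviation was its log2 CPM minus the median log2 CPM of the other 9 tumours, so that 0 means the level of a typical tumour. The study asked how heterogeneous tumours of the same engineered genotype are, and sequenced polyadenylated RNA from 13 liver tumours, 3 control livers and 3 high AAV control livers. Of these, tumours 04 to 13 were analysed here, and neither group of control livers was. All mice were male and carried 1 copy of Ctnnb1tm1Mmt, an allele that gives a stabilised β-catenin after Cre recombination, together with Gt(ROSA)26Sortm1(MYC)Djmy in homozygous form, which switches on a MYC transgene. Cre came from AAV8.TBG.PI.Cre.rBG, an adeno-associated virus (AAV) whose TBG promoter is active in hepatocytes. Mice of the tumour and control groups received 640000000 genome copies each, and those of the high AAV control group 200000000000. The labels give no age, and the tumours came from mice that share these alleles and this virus, so that no comparison with another genotype was possible.

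The genes of a chromosome do not form a pathway. Each is read from its own promoter, and neighbours can serve unrelated functions. Mouse chromosome 10 holds enzymes of hepatocyte metabolism such as retinol dehydrogenases and glutathione transferases, cell cycle and p53 network genes such as Cdk4 and Mdm2, the β-catenin target Lgr5, and many housekeeping genes of translation and mitochondria. In whole tumour tissue, fewer cells of a type and less RNA per cell cannot be told apart. DNA was not measured in the files used here.

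Gene counts summed to between 11687034 and 36964427 per tumour, with tumour 13 the deepest library and tumour 07 the shallowest. Normalisation factors by the trimmed mean of M-values (TMM) ranged from 0.913 to 1.10. Tumour 07 had the lowest factor and also stood apart with the highest share of alignments that were not unique, 57.9%, and the part of these in its values was not tested. At these depths 3 counts corresponded to between 0.0812 and 0.257 CPM, and all 522 genes had at least 1 count in every tumour, the smallest count being 6. Each column of the table carries a tag that takes 5 values: tumours 05 and 06 share one, as do 07 and 08, 09 and 10, and 11, 12 and 13, while 04 stands alone. No label explains the tags, so whether tumours of 1 tag came from the same animal is not known. Single-gene levels below are CPM scaled with the TMM factors.

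The promoters of 3 members are printed first, because they belong to an abundant translation factor, a cell cycle kinase and an abundant matrix gene that were the lowest or next to the lowest of the 10 tumours in tumour 13. They are the 250 bases before the RefSeq start of each gene on GRCm38.p6, written 5′ to 3′ on the gene's strand. Capitals mark the E-box CACGTG, which is the same on both strands and is the preferred motif of MYC, and the TATA box TATAAA or its complement TTTATA. Cdk4 (chr10:127063285-127063534, forward strand) held 4 E-boxes, the most of the 104 listed genes with a promoter sequence. Eef2 (chr10:81176381-81176630, forward strand) held 1 of each motif, and Col18a1 (chr10:77166531-77166780, reverse strand) held neither.
Cdk4: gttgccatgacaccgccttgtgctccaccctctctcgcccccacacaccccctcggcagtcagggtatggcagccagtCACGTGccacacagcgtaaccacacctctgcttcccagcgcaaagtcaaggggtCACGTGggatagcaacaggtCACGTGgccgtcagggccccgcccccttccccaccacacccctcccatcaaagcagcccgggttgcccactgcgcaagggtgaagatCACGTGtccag
Eef2: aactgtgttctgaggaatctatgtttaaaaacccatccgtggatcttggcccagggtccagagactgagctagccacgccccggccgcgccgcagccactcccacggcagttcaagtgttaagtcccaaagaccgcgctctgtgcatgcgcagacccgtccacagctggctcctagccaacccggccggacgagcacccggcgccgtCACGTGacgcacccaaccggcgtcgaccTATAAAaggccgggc
Col18a1: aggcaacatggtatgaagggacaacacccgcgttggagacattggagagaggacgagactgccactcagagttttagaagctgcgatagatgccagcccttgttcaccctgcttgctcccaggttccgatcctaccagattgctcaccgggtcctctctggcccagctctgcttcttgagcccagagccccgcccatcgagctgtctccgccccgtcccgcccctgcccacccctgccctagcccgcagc

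Over the whole RefSeq window, which runs from 250 bases before to 50 after the start, 418 of the 522 genes were matched to a sequence. An E-box was present in 59 of them (14.1%), against 7.24% of all 27025 promoters of the table and 10.7% of the 7847 with a gene that passed the same CPM threshold. A TATA box was present in 34 (8.13%), against 14.2% of all promoters and 6.98% of those that passed. The shares over all promoters thus differ from those of expressed genes, and nothing particular to chromosome 10 is read from them. In tumour 13 the median deviation was -0.36 for the 59 genes with an E-box and -0.38 for the 359 without. It was -0.46 for the 34 genes with a TATA box and -0.38 for the 384 without. Genes with and without either motif thus lay on the same side of 0. A match of letters does not show that a factor binds there.

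Chromosome 10 genes were lower in tumour 13 than in the other tumours along the whole chromosome, and higher in tumours 11 and 07. The median deviation over the 522 genes was -0.37 in tumour 13, 0.23 in tumour 11 and 0.22 in tumour 07. In the other 7 tumours it lay between -0.042 and 0.011. On the linear scale, the typical chromosome 10 gene stood at 77.6% of the other tumours' median in tumour 13, at 117% in tumour 11 and at 116% in tumour 07. The medians over all 10534 genes that passed the same CPM threshold were within 0.014 of 0 in each tumour. Because tumour 13 enters the reference of the others, tumours 11 and 07 were also computed without it, which gave 0.21 and 0.19.

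In tumour 13, 458 of the 522 genes (87.7%) lay below 0, whereas 49.8% of all genes tested did. The quartiles of the 522 deviations were -0.56 and -0.17, so that the upper quartile also lay below 0. Tumour 13 was the lowest of the 10 tumours for 182 genes (34.9%), against 7.54% of all genes tested, and the highest for 4 (0.766%), against 8.11%. The share lowest in tumour 13 was 25.3% in CPM without TMM factors, against 4.36% of all genes, and 17.0% without a filter on low counts, against 4.27%, where 265 of 1026 chromosome 10 genes had 0 counts in several tumours. A deviation of -0.5 or below was seen for 165 genes (31.6%), against 11.2% of all genes tested. Deviations of -1 or below were seen for 41 genes in tumour 13, 42 in tumour 12 and 5 to 25 in the other 8. The share over all genes tested is not given for this limit, so nothing is read from these counts. In tumour 13, 64 members lay above 0. With every library thinned to the depth of the shallowest, the median of tumour 13 was -0.37. Thinning evens out the number of counts only, and the part of other differences between libraries was not tested.

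In tumour 11, 398 genes (76.2%) lay above 0, against 49.7% of all genes tested. It was the highest tumour for 124 genes (23.8%), against 10.1% of all genes. In tumour 07, 376 genes (72.0%) lay above 0, against 48.8% of all genes. It was the highest tumour for 127 genes (24.3%), against 13.8% of all genes. That share was 13.0% in CPM without TMM factors, against 7.19% of all genes, and 15.4% without the filter, against 12.6%. The lower quartile was 0.022 in tumour 11 and -0.045 in tumour 07, and the upper quartile was 0.45 and 0.49. The share of all gene counts that fell on chromosome 10 was 3.89% in tumour 13 and between 4.40% and 5.67% in the other 9, with tumour 11 at the top. The value of tumour 07 depended on the scaling: in CPM without TMM factors its chromosome 10 median was 0.078, but the median over all genes was then -0.16, and the difference between them was 0.24. The same difference was 0.24 in tumour 11 and -0.37 in tumour 13.

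**Figure D1:**
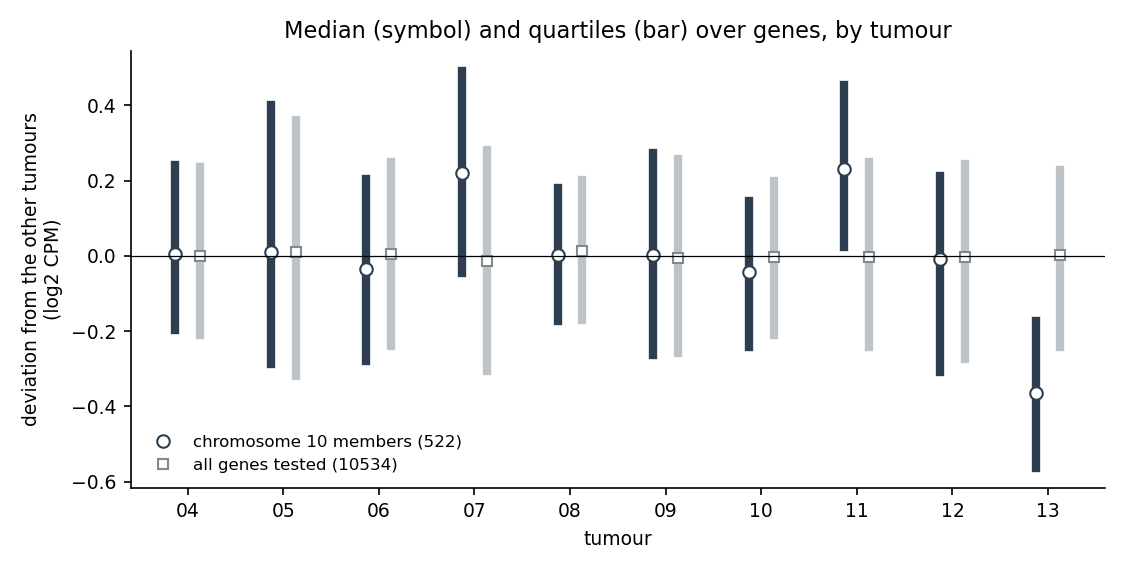
Deviation from the other tumours in log2 CPM (vertical axis) for each of the 10 tumours (horizontal axis). Symbols are medians and bars run from the lower to the upper quartile over the 522 chromosome 10 genes (dark bars, circles) and over all 10534 genes tested (grey bars, squares); the circle of tumour 13 lies at -0.37 with both quartiles below 0, those of tumours 11 and 07 lie at 0.23 and 0.22, and the squares stay near 0.

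The shift of tumour 13 ran over the whole chromosome. Of the windows of 10 megabases (Mb), 12 held at least 10 members, and tumour 13 was the lowest tumour in all 12, with window medians between -0.47 and -0.28. The lowest value came from 25 genes between 50 and 60 Mb and the highest from 32 genes between 110 and 120 Mb. In medians over 41 neighbouring members it stayed between -0.48 and -0.26. The lowest such run reached from Cep85l to Srgn (chr10:53149539-62363238) and the highest from Lum to Nup107 (chr10:97400990-117628692). At every one of the 482 positions of the run the value was below 0.

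Tumours 07 and 11 were above 0 in all 12 windows, but less evenly. Window medians ran from 0.11 to 0.32 in tumour 07 and from 0.057 to 0.31 in tumour 11, and tumour 07 was the highest tumour in 5 windows and tumour 11 in 7. The window of tumour 11 between 50 and 60 Mb, its lowest, fell below 0 under 6 alternatives, at -0.069 to -0.0044: with all libraries thinned and without tumour 04, 07, 08, 10 or 13. The windows of tumour 07 between 40 and 50 and between 60 and 70 Mb were -0.00067 and -0.060 in CPM without TMM factors. The peak of tumour 11, a run median of 0.55, covered 41 members from Med16 to Timm13 (chr10:79730539-80736803). In this gene-dense stretch tumour 13 stood at -0.35, tumour 07 at 0.31, tumour 09 at -0.24 and tumour 12 at -0.16. The lowest runs of tumours 11 and 07 were 0.025, from Sirt6 to Scyl2, and 0.0087, from Krr1 to Lrig3. Each tumour whose median over the chromosome was near 0 changed sign along it. The window medians of tumours 09 and 12 ranged most widely, from -0.18 to 0.20 and from -0.28 to 0.14.

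**Figure D2:**
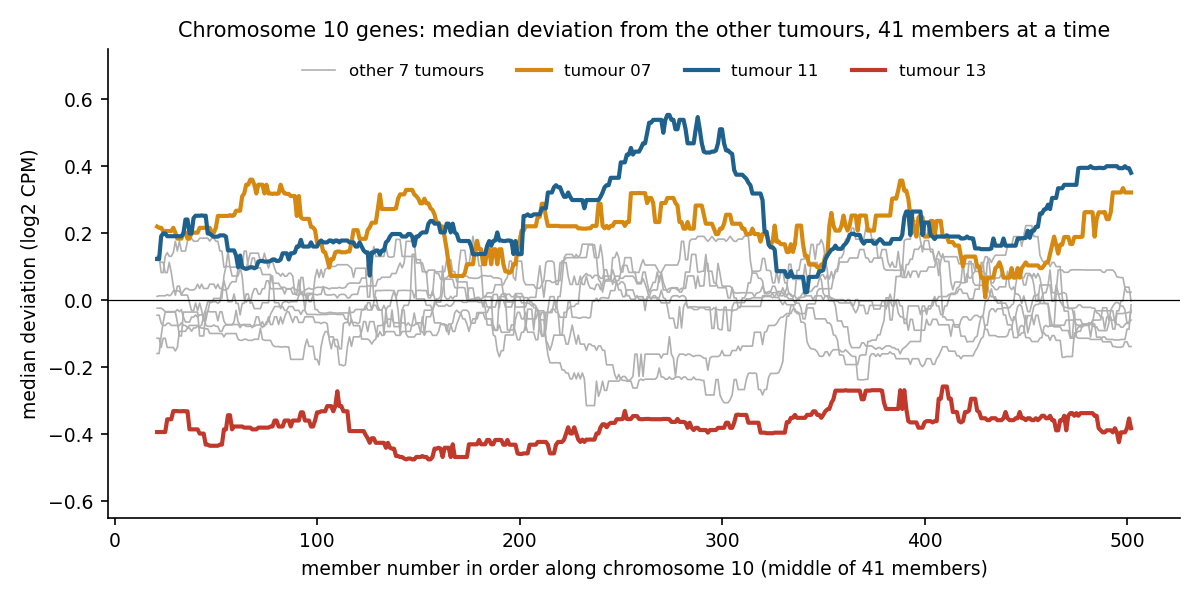
Median deviation in log2 CPM (vertical axis) over 41 neighbouring chromosome 10 genes, against the number of the middle gene in order along the chromosome (horizontal axis). Each line is 1 tumour; tumour 13 (red) stays between -0.48 and -0.26, tumours 11 (blue) and 07 (orange) stay above 0, and the other 7 tumours (grey) lie around 0.

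Other chromosomes were examined to place these values. Over 20 chromosomes and 10 tumours, 25 of the 200 medians were 0.2 or more in size. Tumour 13 on chromosome 10 ranked 1st in size, tumour 11 on chromosome 10 ranked 19th and tumour 07 ranked 22nd. The other chromosomes of tumour 13 had medians from -0.24 to 0.26, and the share of their genes that were lowest in tumour 13 ran from 1.23% to 19.7%, against 34.9% on chromosome 10. The range of medians over the 10 tumours was 0.60 on chromosome 10, second to chromosome 15 with 0.64. Medians of this size were therefore not limited to chromosome 10, and the values of tumours 11 and 07 had like-sized counterparts on other chromosomes. Since chromosome 10 was chosen with these values known, the ranks are a description.

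**Figure D3:**
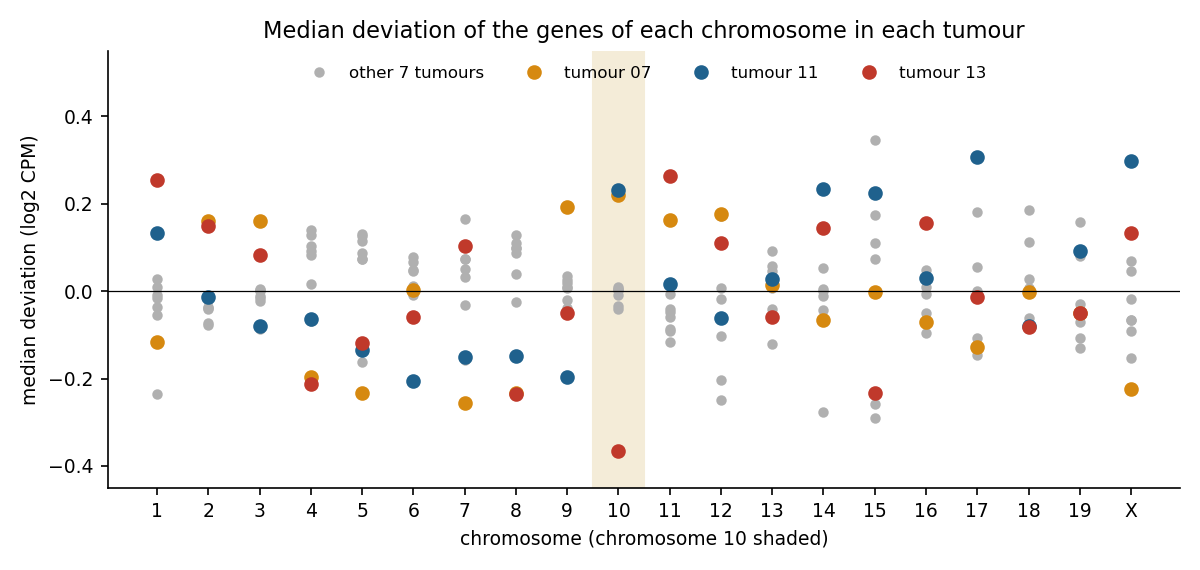
Median deviation in log2 CPM (vertical axis) of the genes of each chromosome (horizontal axis), 1 point per tumour. Tumour 13 (red) on chromosome 10 (shaded) is the lowest point of the plot at -0.37, while its points on the other chromosomes lie between -0.24 and 0.26.

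Set against single tumours, tumour 13 was lower in all 9 pairs. The median difference over the 522 genes was between 0.29 and 0.55 in log2 CPM, and between 71.6% and 90.2% of the genes were lower in tumour 13. The 36 pairs without tumour 13 differed by between 0.0013 and 0.25. The largest difference, 0.55, was against tumour 11, which carries the same tag as tumour 13, and tumour 12, the other tumour with that tag, differed from it by 0.30. The tumours of the same tag thus gave the largest and the second smallest of the 9 differences. These 9 pairs share tumour 13 and are not independent of one another.

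The median of tumour 13 was below 0 in each group of the gene features examined. In 3 equal groups of 174 genes by rising GC content of the longest transcript, the median deviation of tumour 13 was -0.36, -0.36 and -0.38. By rising mean level in the other tumours it was -0.36, -0.40 and -0.36, with 144, 152 and 162 genes of the groups below 0. By rising span of the gene it was -0.37, -0.35 and -0.39. By rising length of the merged exons it was -0.43, -0.35 and -0.35. By rising spread over the other 9 tumours it was -0.35, -0.34 and -0.48, so the most variable group was the lowest, while fewer of its genes (140, against 162 in the least variable group) lay below 0. Over all genes tested the groups by spread were at 0.032, 0.021 and -0.11, so that the most variable group was the lowest there too.

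Other tumours did move with GC content. Their medians over the same groups were 0.15, 0.014 and -0.19 in tumour 09, 0.13, -0.015 and -0.16 in tumour 12 and 0.15, 0.19 and 0.35 in tumour 11. Over all genes tested, groups by GC content gave 0.14, -0.025 and -0.15 in tumour 09, 0.13, -0.013 and -0.15 in tumour 12 and -0.076, -0.017 and 0.080 in tumour 11. The windows between 70 and 90 Mb, where tumours 09 and 12 were both below 0, had the highest median GC content of the 12, at 54.4% and 55.8%. Tumour 12 was also below 0 in windows of low GC content, at -0.28 between 10 and 20 Mb (46.4%), its lowest, -0.13 between 30 and 40 Mb (46.6%) and -0.10 between 50 and 60 Mb (45.0%). The part of GC content in the values of these tumours was not tested.

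By gene type, the 522 members were 501 protein-coding genes, 20 pseudogenes and 1 long non-coding RNA. In tumour 13 the median of the 20 pseudogenes was 0.14, with 8 below 0 and 12 above. Reads of a pseudogene may be shared with its parent gene elsewhere in the genome, so these values are uncertain. With protein-coding genes alone the median of tumour 13 was -0.38. Among the members, 93 overlap a member on the opposite strand and 4 one on the same strand, and since the strand setting of the counting is not known, the reads of such pairs may not be separated. The genes lay on the forward strand in 258 cases and on the reverse strand in 264, and spanned chr10:3490233-130249178 on GRCm39.

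Near the threshold, the members with the lowest mean were Tbc1d32 at 5.21, Tpd52l1 at 5.22 and Ybey at 5.28 CPM, and the genes just outside were Hace1 at 4.85, Gm9923 at 4.73 and Dgka at 4.71 CPM. Because the mean over the tumours set membership, a gene could enter through a few high tumours. The median of 15 members was under 5 CPM, and 9 members fell below 1 CPM in at least 1 tumour. The spread of the members over tumours was close to that of other genes, with a median SD of 0.33 in log2 CPM against 0.31 over all genes tested. An SD above 1 was reached by 36 members (6.90%), against 6.05% of all genes.

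Described by role, 126 of 153 listed chromosome 10 genes were members, and in tumour 13 each of the 6 lists had a median below 0. Over all 522 genes the median was -0.37, 87.7% lay below 0 and 34.9% were lowest in tumour 13. The lists had from 80.0% to 100% of their members below 0, and nothing particular to a role is read from these counts. Translation and RNA processing genes stood at -0.43 with 17 of 19 members below 0, and tumour 13 was the lowest tumour for 9 of them. Eef2 (chr10:81012465-81018348), the elongation factor that moves the ribosome along the message, held 9.29% of all chromosome 10 counts. It ranged from 3052 CPM in tumour 09 over a median of 4328 to 6639 CPM in tumour 07, and tumour 13 was next to the lowest at 3193 CPM, a deviation of -0.45. Polr3b, a subunit of RNA polymerase III, showed a narrow range in the other 9 tumours, from 33.1 to 39.3 CPM. Tumour 13 lay outside that range at 24.7 CPM, a deviation of -0.51. Rps15, a protein of the small ribosomal subunit, ranged from 322 CPM in tumour 13 over a median of 430.4 to 1079 CPM in tumour 07, so the lowest and the highest tumour were 2 of the 3 shifted tumours. The exceptions in tumour 13 were Nap1l1, a histone chaperone, at 0.62, and Snrpf, a spliceosome protein, at 0.19.

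Mitochondrial genes had a median of -0.43 in tumour 13, with 17 of 18 members below 0. Atp5f1b (chr10:127919132-127926261), the catalytic β subunit of ATP synthase, held 4.11% of the chromosome 10 counts. Its values ran from 1465 CPM in tumour 13 over a median of 2008 to 2349.6 CPM in tumour 11, and the next lowest tumour was 1728 CPM in tumour 04. Uqcr11, a subunit of respiratory complex III, lay between 105 CPM in tumour 13 and 258 CPM in tumour 07, with a median of 156 CPM. For both genes tumour 13 was the lowest of the 10 and did not overlap the other 9. Shmt2, the mitochondrial enzyme that takes 1-carbon units from serine, was also lowest there at 209 CPM, against 260.2 to 568 CPM in the others. Cs, citrate synthase, deviated less, by -0.27, with tumour 13 at 363 CPM inside the range of the other tumours. Gpx4, which removes lipid peroxides, was the 1 member above 0, at 0.21.

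Of the liver metabolism genes, 28 of 35 lay below 0 in tumour 13, with a median of -0.39, but some ranged widely between tumours. Gstt1, a glutathione transferase, was lowest in tumour 13 at 71.6 CPM, but tumour 09 at 76.2 and tumour 05 at 83.7 CPM were close to it. Hsd17b6 (chr10:127826802-127843497), a hydroxysteroid dehydrogenase, was dominated by tumour 11 at 387 CPM over a median of 14.1 CPM, and its lowest value was 2.09 CPM in tumour 05. Genes above 0 in tumour 13 included Vnn3, a pantetheinase, at 0.48 and Amd1, of polyamine synthesis, at 0.13.

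Cell cycle and p53 network genes had a median of -0.31, with 18 of 20 below 0. Cdk4, the kinase of the G1 phase whose promoter is printed above, ranged from 85.5 CPM in tumour 13 over a median of 114 to 154 CPM in tumour 09, and tumour 13 did not overlap the others. Cdk1, the mitotic kinase, had a median of 26.3 CPM over the tumours and stood at 25.7 CPM in tumour 13. For Mdm2, the ubiquitin ligase of p53, the median was 52.8 CPM and tumour 13 stood at 52.1 CPM. These 2 genes lay near the middle of the tumours. The largest negative deviations of the list were those of Btg1, an antiproliferative gene, at -1.93, and of Gadd45b, a growth arrest and stress gene, at -1.92. Gadd45b ran from 9.08 CPM in tumour 13 over a median of 30.2 to 175 CPM in tumour 05, with tumour 12 at 10.4 and tumour 11 at 16.6 CPM nearest to tumour 13. The genes above 0 were Prim1, of DNA primase, at 0.12 and Timeless, of the replication fork, at 0.029.

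Growth and cytokine signalling genes had a median of -0.42, with 13 of 16 below 0. Among receptors, Erbb3, a receptor tyrosine kinase, was lowest in tumour 13 at 118 CPM, against 145 to 273 CPM in the other 9 tumours. Lgr5, the R-spondin receptor that β-catenin induces, ranged from 34.0 CPM in tumour 09 over a median of 50.2 to 118 CPM in tumour 07, with tumour 13 at 35.3 CPM close to the lowest. Of the ligands, Igf1 was at 76.3 CPM and deviated by 0.17, and Ccn2, a matrix-associated growth factor, was lowest at 3.06 CPM, a deviation of -2.40, with tumours 10, 11 and 12 between 4.04 and 4.41 CPM. Stat2, of interferon signalling, and Sgk1, a kinase, deviated by 0.20 and 0.58.

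Neighbouring genes of 1 family did not always deviate alike in tumour 13. The families here, and the glucose and stress genes and single genes of tumours 11 and 07 after them, were chosen after their values were seen and are given as descriptions. Of the glutathione transferases, which conjugate foreign compounds, Gstt3 (chr10:75609940-75617256) and Gstt1 (chr10:75618994-75634445) lie next to each other and deviated by -1.22 and -1.08, while Gstt2 (chr10:75666948-75673258), the next member along, was at 0.093. Gstt2 stood at 166 CPM in tumour 13, inside its range from 129.9 CPM in tumour 09 over a median of 161 to 315 CPM in tumour 07. Ddt, the tautomerase gene on the other side of Gstt3, was lowest in tumour 13 at 257 CPM. Gene families of this kind can share reads, so how far their members differ is uncertain.

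The retinol dehydrogenase genes, whose products oxidise retinoids and steroids, showed the same mixture. Rdh7 (chr10:127719896-127724686) deviated by -0.46, but Rdh9 (chr10:127612255-127628566) and Rdh16 (chr10:127637001-127682434), its neighbours, by -0.086 and 0.11. Rdh7 was most abundant in tumours 07 and 11, at 824 and 807 CPM, and lowest in tumour 05 at 285 CPM. The pantetheinase genes Vnn1 and Vnn3 deviated by -0.39 and 0.48 in tumour 13, and the nearby nucleotide pyrophosphatase genes Enpp1 and Enpp3 by -0.46 and -0.72. Col6a1 and Col6a2, which encode chains of the same collagen, stayed close to each other in every tumour, from 7.07 and 7.04 CPM in tumour 12 to 92.5 and 87.3 CPM in tumour 09, and tumours 10 to 13 held the 4 lowest values of both.

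The highest values of 4 glucose-handling and stress genes were in tumour 05. Pfkl, the liver phosphofructokinase, ranged from 99.4 CPM in tumour 12 over a median of 184 to 560.2 CPM in tumour 05, and Hk1, a hexokinase that hepatocytes normally express little of, from 2.32 CPM in tumour 13 over a median of 7.28 to 31.2 CPM in tumour 05. Ndufa4l2 was highest in tumour 05 too. Hsp90b1, a chaperone of the endoplasmic reticulum, and Ddit3, a transcription factor of the stress response, were also highest in tumour 05, at 2460.1 and 339 CPM over medians of 813 and 41.8 CPM. In tumour 13 the deviations of Pfkl, Hk1, Hsp90b1 and Ddit3 were -0.37, -1.95, -0.68 and -0.79. The chromosome 10 median of tumour 05 was 0.011.

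In tumours 11 and 07 the lists did not all move the same way. Over all 522 genes, 76.2% lay above 0 in tumour 11 and 72.0% in tumour 07, against 49.7% and 48.8% of all genes tested, and the counts by list are to be read beside these shares. Tumour 11 had medians of 0.42 for mitochondrial genes (17 of 18 above 0), 0.41 for translation and RNA processing (18 of 19) and 0.39 for liver metabolism (29 of 35). The values of tumour 07 were 0.38 (15 of 18), 0.55 (17 of 19) and 0.45 (28 of 35). Cell cycle and p53 network genes were nearer to 0, at 0.13 and 0.12, and growth and cytokine signalling genes stood at 0.19 in tumour 11 and -0.12 in tumour 07. The largest list medians of tumour 05, -0.67 for liver metabolism with 30 of 35 below 0, and of tumour 06, -0.39, arose while the chromosome as a whole was near 0, with 47.5% and 54.6% of the 522 genes below 0.

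Single genes in tumours 11 and 07 ranged widely around these medians. Rpl41, a protein of the large ribosomal subunit, was 529.9 CPM in tumour 07 and 412 CPM in tumour 11, the highest values, and 147 CPM in tumour 13, the lowest. Rps26, of the small subunit, had the same highest pair, at 209 and 139 CPM, over a median of 100.2 CPM. Upb1, of pyrimidine breakdown, and Gamt, of creatine synthesis, were highest in tumour 11 at 430.0 and 309 CPM, with tumour 07 next at 412 and 299 CPM. Nr1h4, the bile acid receptor, was highest in tumour 12 at 110.2 CPM and next in tumour 11 at 101 CPM. Acss3, an acyl-CoA synthetase, went the other way, at 0.562 CPM in tumour 07 and 1.32 CPM in tumour 11 over a median of 7.82 CPM.

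**Figure D4:**
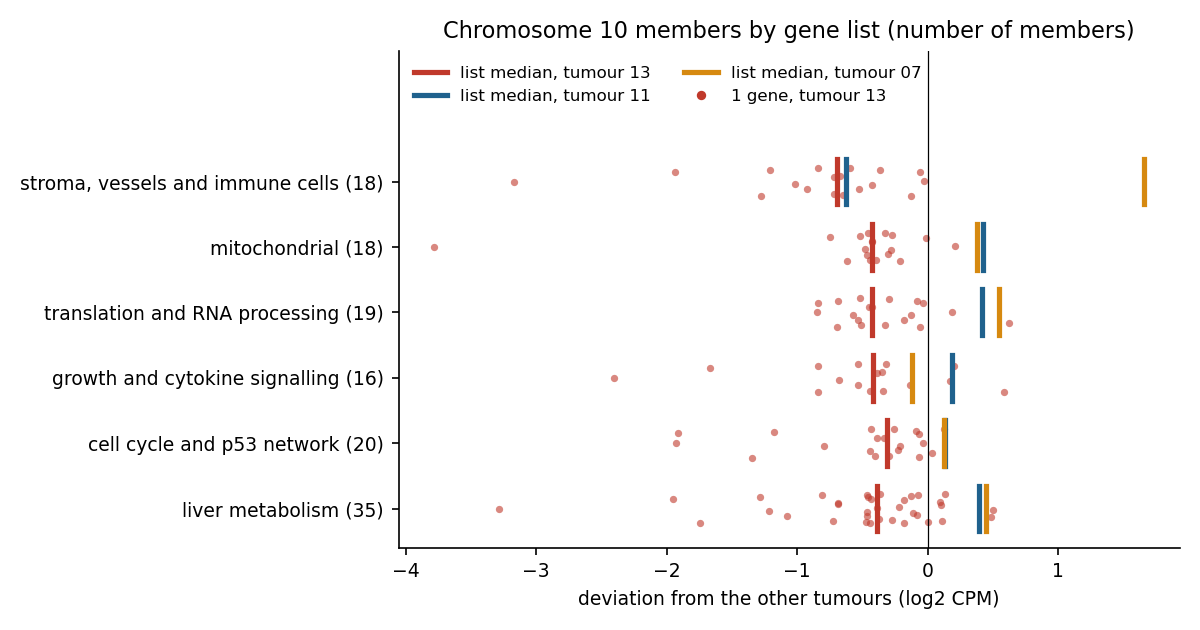
Deviation from the other tumours in log2 CPM (horizontal axis) of the 126 listed chromosome 10 genes, by list with the number of members (vertical axis). Points are single genes in tumour 13 and vertical strokes are list medians in tumours 13 (red), 11 (blue) and 07 (orange); all 6 red strokes lie between -0.70 and -0.31, whereas tumours 11 and 07 are on opposite sides of 0 for the stroma, vessel and immune list.

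The list of stroma, vessel and immune genes varied most between tumours. It lay on the same side of 0 as the whole chromosome in tumours 13 and 07, but on the other side in tumour 11. Its median was -0.70 in tumour 13, where all 18 members were below 0, but it was also -0.80 in tumour 10, -0.75 in tumour 12 and -0.63 in tumour 11, and it was 1.66 in tumour 07, 1.39 in tumour 09 and 0.90 in tumour 04. Only 1 of the 18 had its lowest value in tumour 13. Gja1, the gap junction protein connexin 43, ranged from 20.7 CPM in tumour 09 to 0.510 CPM in tumour 13, with tumours 10, 11 and 12 at 0.854, 0.820 and 1.01 CPM. Dcn, the fibroblast proteoglycan decorin, was lowest in tumour 05 at 14.9 CPM, with tumour 13 next and tumour 09 highest at 99.2 CPM. Col18a1 (chr10:76888012-77002390), the basement membrane collagen that yields endostatin, ranged from 1127 CPM in tumour 09 over a median of 1733 to 2066 CPM in tumour 07, with tumour 13 at 1179 CPM, and held 3.33% of the chromosome 10 counts. Without these 18 genes the median of the chromosome was -0.36 in tumour 13, 0.24 in tumour 11 and 0.21 in tumour 07.

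Marker genes of cell types, hepatocytes included, were also summed. Stab2, Dcn and Lum are both among these markers and in the stroma, vessel and immune list, so the 2 views overlap. All 6 endothelial markers were detected, with a summed level from 62.0 to 420.3 CPM; tumour 13 was at 63.4 CPM, tumour 11 was the lowest and tumour 07 the highest. For the 8 stellate cell and fibroblast markers the sum ran from 248 to 1843 CPM, with tumour 13 at 311 CPM. The 5 red blood cell markers ran from 101 CPM in tumour 13 to 6275 CPM in tumour 07. The 8 macrophage markers ran from 117 to 338 CPM, with tumour 13 at 148 CPM. The 6 lymphocyte markers ran from 0.632 to 5.67 CPM, with tumour 13 at 1.63 CPM. For the 4 cholangiocyte markers the sum ran from 3.67 CPM in tumour 12 to 77.6 CPM in tumour 10, with tumour 13 next to the lowest at 9.77 CPM. No marker of these lists was at 0 in tumour 13. The hepatocyte markers, 7 of 8 in the table, summed to between 27212 and 41999 CPM, with tumour 13 at 29500 CPM. The part of these cells in the chromosome 10 values was not tested.

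Of the engineered genes, Ctnnb1 was measured, and the MYC transgene was not analysed here. Ctnnb1 was 385 ± 96.4 CPM (SD, n = 10) with tumour 13 at 399.6 CPM, and mouse Myc was 83.6 ± 21.1 CPM with tumour 13 at 85.9 CPM. The β-catenin target Glul, which encodes glutamine synthetase, was 10567 ± 2894 CPM with tumour 13 at 8548 CPM. Tumour 13 was within 1 SD of the mean for these 3 genes, but for Glul it was next to the lowest, above tumour 09 at 5485 CPM. The 5 markers of β-catenin activation, Glul among them, summed to between 6082 CPM in tumour 09 and 15386 CPM in tumour 04. In tumour 13 this sum was next to the lowest at 9251 CPM.

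Among the members that were lowest in tumour 13 relative to the other tumours, 4 are given here, and each varied widely between tumours. Ndufa4l2 (chr10:127350818-127353038), a hypoxia-induced mitochondrial protein, deviated by -3.78 and had the largest SD of all 522, 2.48. Tumours 12 and 13 had 0.720 and 0.739 CPM, whereas tumour 05, the highest, had 104 CPM. Slc39a5 (chr10:128231799-128237121), a zinc transporter, deviated by -3.41 and was under 12 CPM in tumours 11 and 13 but between 34.7 and 264 CPM in the others. Gja1 was at -3.17 and the signalling scaffold Akap12 at -2.96. Tumour 13 was the lowest tumour for Gja1 alone of these 4.

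At the other end, the 5 members highest in tumour 13 were Bbs10, a chaperonin-like protein of cilia, at 1.18, the adaptor Shc2 at 1.15, the pseudogene Ap3m1-ps at 0.86, Cbarp, which binds calcium channel subunits, at 0.85, and the pseudogene Gm9797 at 0.66. Bbs10 was 9.74 CPM in tumour 13, and tumours 07, 11 and 12, at 10.4, 11.5 and 9.30 CPM, were like it, while the other 6 tumours ran from 3.35 to 5.53 CPM. The highest tumour was 13 only for Cbarp and Gm9797.

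Beside those already named, members with a large SD over tumours included Hsd17b6 (2.11), B4galnt1 (2.05), Prtn3 (2.04), Aldh1l2 (1.70), Shc2 (1.69) and Derl3 (1.68). B4galnt1, a ganglioside synthesis enzyme, fell into separate levels, with tumours 05 to 08 between 2.74 and 7.97 CPM and the other 6 between 48.1 and 123 CPM. Prtn3, a neutrophil protease, was highest in tumours 06 and 05, at 39.2 and 21.6 CPM, and stayed under 5 CPM in the other 8. Aldh1l2, a mitochondrial folate enzyme, and Derl3, which acts in the disposal of misfolded proteins of the endoplasmic reticulum, were highest in tumours 05 and 10, at 53.2 and 35.9 CPM for Aldh1l2 and at 72.1 and 75.6 CPM for Derl3. For none of these 4 was tumour 13 the lowest or the highest tumour.

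The 4 genes with the most counts, Eef2, Atp5f1b, Col18a1 and Tmt1b, held 19.3% of all chromosome 10 counts. Tmt1b (chr10:128794143-128796882), a thiol methyltransferase of liver that made up 2.61%, went against the rest in tumour 13, at 1311 CPM and a deviation of 0.19. It ranged from 594 CPM in tumour 06 over a median of 1154 to 1995 CPM in tumour 11.

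**Figure D5:**
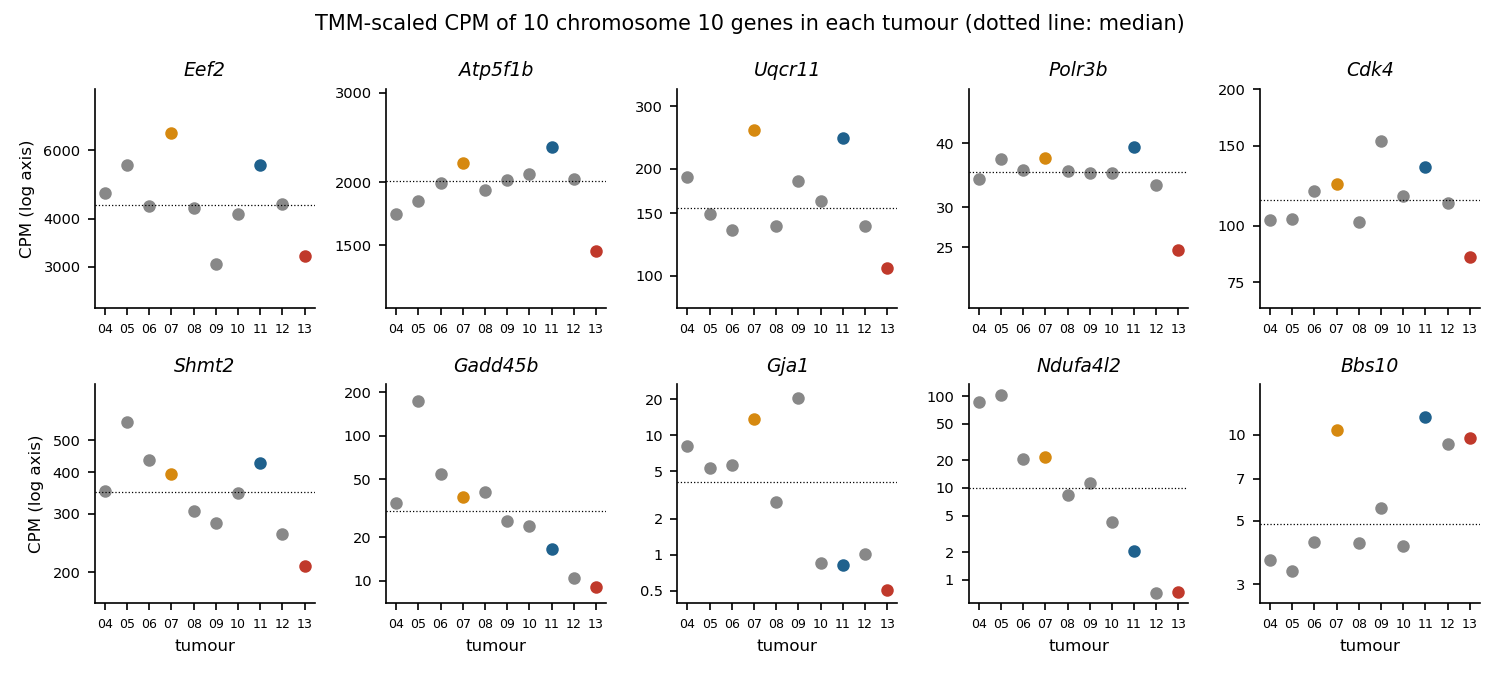
TMM-scaled CPM (vertical axes, logarithmic and different for each gene) of 10 chromosome 10 genes in each of the 10 tumours (horizontal axes), with tumours 13, 11 and 07 in red, blue and orange and the median as a dotted line. Tumour 13 lies below the other 9 for Atp5f1b, Uqcr11, Polr3b, Cdk4, Shmt2, Gadd45b and Gja1, is next to the lowest for Eef2 and Ndufa4l2, and is among the higher tumours for Bbs10.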

How the data were processed

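RNA was sequenced from the livers of male mice, and the counts deposited by the authors are reads per gene in a single table, without normalisation. The study's methods describe libraries made with a stranded mRNA kit from Trizol-extracted RNA. The submitters' processing notes name TopHat2, HTSeq and GRCm38, whereas the study's methods name other programs for its RNA sequencing. There are 39179 gene identifiers in it, and 5 summary lines like those of HTSeq, which were left out of library sizes. Alignments that were not unique were 45.4% to 57.9% of a column. Whether counting used the strand is not given in the sources used here.

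Columns were assigned by the number in their name when a single sample title had that number, which held for tumours 04 to 13 and assumes that titles and columns share their numbers. The other 9 of 19 columns were not used here. Because the matched samples form 1 group, no test between groups was made and no p-value is given.

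Symbols, types and positions came by stable identifier from GENCODE M39 (GRCm39). Genes without a position (93 of 10534) entered no chromosome. Counts were scaled in edgeR 4.0.16 (R 4.3.3, limma 3.58.1) with TMM factors from genes with a mean of at least 5 CPM, and log2 CPM used a prior count of 2. Floors of 3 counts cover counting error only. The remaining steps were run in Python 3.11.15 (numpy 2.4.6, pandas 2.3.3, matplotlib 3.10.9), and size factors of DESeq2 1.42.0 served as another scaling. The steps were tested on simulated data.

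The members, gene lists and alternatives were chosen with earlier results of these data known. Genes named in the text were examples from 6 lists of chromosome 10 genes by role, the 5 lowest and 5 highest in the tumour with the largest median deviation, the 10 with the largest SD, the 4 with the most counts and those next to the threshold. Promoters and starts are those of RefSeq (GRCm38.p6), matched by symbol. Values of 2 genes of the liver metabolism list are not reported here, although its counts and medians include them.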

Additional observations from a re-analysis of the deposited data

Results flagged for a closer look

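A gap test (Dixon, 10 tumours, critical value 0.466) was applied to 41 measures of chromosome 10, and 3 exceeded it. The critical value is set so that about 1 in 20 measures exceeds it by chance, but chromosome 10 and several of the measures were chosen with these values known, so the gaps are a description and support nothing. In all 3 the tumour that stood apart was tumour 13. Its chromosome 10 median of -0.37 was separated from the next tumour, at -0.042, by 0.543 of the whole range. The share of genes with their lowest value in tumour 13, 34.9%, was separated from the next highest share, 15.3%, by 0.590 of the range. The median of the 41 genes between 60 and 70 Mb was -0.44 in tumour 13 and at least -0.10 in the others, a gap of 0.505 of the range, and none of the other 11 windows exceeded the critical value. These measures share genes and are not independent.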

How the results depend on the processing

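The median deviation of chromosome 10 kept its sign in tumours 13, 11 and 07 under 14 alternatives, 2 of them, TMM factors from all genes and members without the stroma, vessel and immune list, chosen after the data were seen. It ran from -0.38 to -0.22 in tumour 13, from 0.15 to 0.25 in tumour 11 and from 0.064 to 0.25 in tumour 07. Without each tumour in turn it ran from -0.38 to -0.35, from 0.21 to 0.26 and from 0.19 to 0.25. The values nearest to 0 came without a filter on low counts, which adds genes with few or no counts, and the window medians of tumour 13 then ran from -0.31 to -0.10. In tumour 07 the value was 0.13 with TMM factors from all genes, where the median over all genes was -0.11. The share of genes lowest in tumour 13 fell from 34.9% to 17.0% without the filter, and ran from 34.7% to 39.7% without each tumour in turn. The share highest in tumour 07 was 13.0% in CPM without TMM factors and 15.4% without the filter, against 24.3%. Of single genes, Hsd17b6 in tumour 13 went from 0.50 to -0.080 against the mean of the others, and B4galnt1, at 0.29, ran from -0.091 to 1.59 without each tumour in turn, being below 0 without tumour 05, 06, 07 or 08, the 4 tumours where it was low. For the other results, 5312 values kept their side or moved by less than the spread and 51 moved by more. No paired analysis was possible because all matched tumours form 1 group. Depth limits members with few counts in single tumours, the smallest count of a member being 6.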
